A study of Mus musculus with 162 samples.

Results

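The genes of 9 sensory neuropeptides were followed through mouse trigeminal ganglion, spinal cord and skin after MC903 or ethanol: Calca, Calcb, Tac1, Adcyap1, Vip, Npy, Cartpt, Nmu and Ucn. They were taken by name, as 9 of the 46078 Ensembl genes in the count lists and the rule used no threshold on a measured value. In the trigeminal ganglion, Calca was higher with MC903 by 1.40- to 1.67-fold in the 4 of 8 comparisons where it passed the test, 3 at day 8 and 1 at day 12, and Adcyap1, Tac1 and Cartpt passed in some of the same comparisons. In those 4, between 0.16% and 3.36% of all genes passed. Calcb, the close relative of Calca, passed in no ganglion comparison. In the spinal cord only Adcyap1 passed, in 1 of 3 comparisons, as 1 of 9 genes where 11.3% of all genes passed. In skin Calcb fell in 5 of 9 comparisons, in which 2.44% to 32.6% of all genes passed. Calca rose in 2 of the 9, in which 28.6% and 32.6% of all genes passed.

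Neuropeptides are cut from longer precursor proteins, packed into dense-core granules and released by nerve endings, where they act on G protein-coupled receptors of neighbouring cells. Sensory neurons that detect itch and pain release them both in the dorsal horn, onto second-order neurons, and in the skin, onto vessels, keratinocytes, mast cells and other immune cells. The mRNA of these neurons sits mainly in cell bodies in the ganglia, so trigeminal ganglion is the tissue in which a change of their transcripts would be read, whereas cord and skin hold other cells and, at most, the neurons' processes. Calca encodes calcitonin and CGRP-alpha, and Calcb encodes CGRP-beta. Both CGRP peptides act through Calcrl with Ramp1 and dilate vessels. Tac1 encodes substance P and neurokinin A, Adcyap1 encodes PACAP and Vip its relative VIP. Npy, Cartpt, Nmu and Ucn encode neuropeptide Y, the CART peptides, neuromedin U and urocortin.

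The study treated adult male C57BL/6 mice once per day with 0.2 mM MC903 (calcipotriol, a vitamin D analog that produces atopic dermatitis-like skin) in ethanol or with ethanol alone, 20 µL by the labels. The methods place this on the cheek for skin and ipsilateral ganglion and give a larger volume on the rostral back for the mice whose thoracic cord was taken. Poly(A) RNA-seq counts were used from 143 libraries, 56 of ganglion, 27 of cord and 60 of skin, with 15931871 to 67342879 counts each. Wild-type mice without injection were compared at day 1 (hours after the first treatment), day 2, day 5 and day 8, and at day 8 also wild-type mice injected with PBS or with anti-Gr1 (aGr1), an antibody given to deplete neutrophils. TSLPR.KO mice, null for the TSLP receptor in all cells, were compared at days 8 and 12 in ganglion and skin, and BLT1.KO mice, which lack a leukotriene B4 receptor, at day 8 in skin. In every comparison both arms shared genotype and injection, so that MC903 against ethanol was the single difference named by the labels, and each such comparison had libraries of its own. The labels do not say whether replicate libraries came from separate mice, so p-values measure the spread between libraries.

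All 143 libraries matched their tissue label by a keratinocyte list against a general neuron list, and the knocked-out gene Crlf2 was lower in TSLPR.KO than in wild-type libraries in both ganglion (median 1.30 against 3.29 cpm, ranges overlapping) and skin (0.0691 to 1.34 against 2.24 to 15.4 cpm). Ltb4r1 overlapped between libraries labelled BLT1.KO (2.33 to 15.1 cpm) and wild-type skin (2.52 to 77.6 cpm), and counts over the whole gene may lie outside a deleted part. All wild-type day 12 libraries (18) were left out, since 13 of them went against their tissue label, as was day 2 skin MC903 replicate 3, which held sensory neuron RNA. Levels are given in cpm, each count divided by the sum of gene counts in that library on the customary scale, as mean ± SD. Tests are edgeR's quasi-likelihood test, adjusted by Benjamini-Hochberg over every gene tested, and called at an adjusted p below 0.1 in ganglion and 0.05 in cord and skin. Log2 fold changes (MC903 against ethanol) carry their standard errors.

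The 9 genes lie on 6 chromosomes of GRCm38. Calca (ENSMUSG00000030669, chromosome 7, 114631478 to 114636357, minus strand) and Calcb (chromosome 7, 114718643 to 114723365, plus strand) are neighbours and paralogs, so reads on near-identical exons could have been split between them or dropped in counting, and their separate values are uncertain to that extent. Tac1 lies at 7554879 to 7565834 of chromosome 6, Adcyap1 at 93199017 to 93206537 of chromosome 17 and Cartpt at 99898489 to 99901091 of chromosome 13. Nmu shares exon sequence with an opposite-strand transcript, and the strand setting of the counting is not given in the sources used here.

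Promoter windows around the transcription start (RefSeq, GRCm38.p6) were found for 8 of the 9 genes, and those of the 4 genes that passed the test in ganglion are shown. They were searched on both strands for the core of the cAMP response element, TGACGT, and for the full palindrome TGACGTCA, which contains it and is marked in capitals with it.
Calca, chr7:114636308-114636607, minus strand: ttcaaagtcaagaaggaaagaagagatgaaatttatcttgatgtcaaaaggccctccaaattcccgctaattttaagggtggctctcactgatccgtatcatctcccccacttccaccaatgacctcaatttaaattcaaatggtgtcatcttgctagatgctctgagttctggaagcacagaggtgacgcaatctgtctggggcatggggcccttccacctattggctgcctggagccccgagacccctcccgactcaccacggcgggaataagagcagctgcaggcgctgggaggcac
Tac1, chr6:7554811-7555110, plus strand: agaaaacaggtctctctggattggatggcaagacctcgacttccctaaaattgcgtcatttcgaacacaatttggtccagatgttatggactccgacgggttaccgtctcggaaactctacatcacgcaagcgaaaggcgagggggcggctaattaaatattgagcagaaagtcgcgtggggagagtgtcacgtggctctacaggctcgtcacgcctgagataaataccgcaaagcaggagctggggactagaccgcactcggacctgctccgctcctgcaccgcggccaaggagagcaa
Adcyap1, chr17:93198918-93199217, plus strand: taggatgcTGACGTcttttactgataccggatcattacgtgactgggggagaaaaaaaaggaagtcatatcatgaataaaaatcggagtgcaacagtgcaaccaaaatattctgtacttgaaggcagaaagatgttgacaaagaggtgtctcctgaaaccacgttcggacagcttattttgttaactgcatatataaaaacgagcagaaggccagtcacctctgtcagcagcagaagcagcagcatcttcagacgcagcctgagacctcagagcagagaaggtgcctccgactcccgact
Cartpt, chr13:99900634-99900933, minus strand: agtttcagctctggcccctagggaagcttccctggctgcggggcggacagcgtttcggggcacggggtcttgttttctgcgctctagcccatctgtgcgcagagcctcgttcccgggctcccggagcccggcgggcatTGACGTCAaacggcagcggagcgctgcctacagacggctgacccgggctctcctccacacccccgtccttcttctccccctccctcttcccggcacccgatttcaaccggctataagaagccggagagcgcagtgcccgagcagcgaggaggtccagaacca
The core was present in 4 of the 8 genes (Adcyap1, Vip, Cartpt and Ucn) and in 7.51% of all 32851 promoter windows of the same length. The full palindrome was present in Cartpt and Ucn, and in 1.79% of all windows. Neither was found in these letters of the Calca and Tac1 windows. A match describes the letters and is not evidence of a working site.

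The 9 genes differed in level between tissues in the ethanol libraries of uninjected wild-type mice at day 8. Per kilobase of exon, Calca was the highest of them in ganglion at 305 ± 34.8 cpm per kb (SD, n = 5), rank 88 of the 28767 genes with a count. Tac1 followed at 75.2 ± 7.23 and Calcb at 27.9 ± 3.60 cpm per kb, and these levels did not overlap. Adcyap1 stood at 7.67 ± 1.24 and Cartpt at 4.02 ± 0.993 cpm per kb, again without overlap. The other 4 were at the limit of detection in ganglion: a library with more than 3 counts was found in 38 of 56 for Npy, 27 for Nmu, 13 for Vip and 2 for Ucn. No change with MC903 in ganglion is therefore read from these 4 genes, and their tissue differences below rest on ganglion counts at this limit. Ucn was also at or under 3 counts in 19 of 27 cord libraries, and Vip in 58 of 60 skin libraries.

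In cord the order was flatter. Calca again led at 32.4 ± 10.5 cpm per kb (SD, n = 5), and the next 4 genes, Tac1 at 11.7 ± 4.45, Npy at 9.77 ± 3.05, Calcb at 8.45 ± 1.20 and Cartpt at 8.21 ± 2.17 cpm per kb, had overlapping ranges. Nmu at 6.05 ± 1.15 overlapped all of these but Tac1 and Calca, and Adcyap1 followed at 2.99 ± 0.565 cpm per kb. In skin (n = 6) Calcb at 1.95 ± 0.470 and Npy at 1.73 ± 0.652 cpm per kb were highest with overlapping ranges, and Calca at 0.792 ± 1.16 cpm per kb was spread from 0 to 3.03. All 9 genes differed between ganglion and cord, where 39.2% of all genes did. Calca, Tac1, Calcb and Adcyap1 were higher in ganglion, Calca by 3.23 ± 0.22 on the log2 scale and Adcyap1 by 1.38 ± 0.14, and Npy, Vip, Nmu, Ucn and Cartpt were higher in cord. Against skin, 7 of the 8 genes tested differed where 60.6% of all genes did, and Npy alone of them was higher in skin (log2 difference −1.99 ± 0.65).

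The ratio of the CGRP genes per kilobase followed tissue. The median Calca to Calcb ratio was 10.5 over 27 ethanol libraries and 12.3 over 29 MC903 libraries of ganglion, and 2.39 over 13 and 2.74 over 14 libraries of cord. Every one of these neural libraries had more Calca than Calcb. In skin the median ratio was 0.0745 over 30 ethanol libraries, with Calca above Calcb in 4, and 0.992 over 30 MC903 libraries, with Calca above Calcb in 15.

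**Figure D1:**
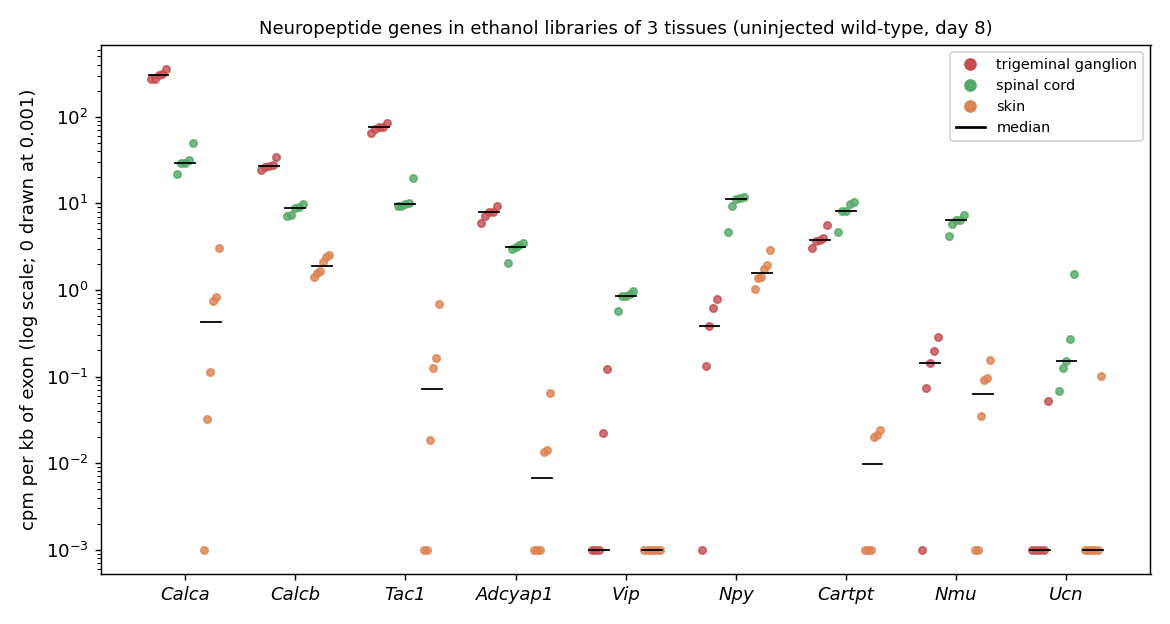
Level of each of the 9 genes in ethanol libraries of uninjected wild-type mice at day 8, in cpm per kilobase of exon on a log axis (0 drawn at 0.001), one point per library of trigeminal ganglion (n = 5), spinal cord (n = 5) and skin (n = 6), with the median as a line. Calca is highest in ganglion and cord, and Npy, Vip, Nmu and Ucn are higher in cord than in ganglion.

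The first question was whether MC903 on the cheek changed these genes in the ganglion of uninjected wild-type mice at day 8, when the model is established. Calca rose 1.44-fold. Of the 8 genes tested, 1 passed, where 0.16% of all genes did (0.125% in the higher direction). Calca stood at 464, 463, 607, 516 and 521 cpm in the ethanol libraries and at 566, 752, 767, 846 and 779.6 cpm in the MC903 libraries. The lowest MC903 library lay below the highest ethanol library, and the other 4 lay above all ethanol libraries. The means were 742 ± 105 and 514 ± 58.6 cpm (SD, n = 5 each), a log2 fold change of 0.53 ± 0.08 (adjusted p = 0.032, 95% interval 0.35 to 0.71). The libraries carry 2 styles of label (sets A and B), which entered as a term. The estimate was 0.51 in set A and 0.53 in set B, neither past the threshold alone (adjusted p = 0.50 and 0.46), and without that term the adjusted p was 0.387. The call was lost without MC903 replicate 2 of set A (adjusted p = 0.134), MC903 replicate 2 (0.109) or 3 (0.120) of set B, or ethanol replicate 1 (0.135) or 2 (0.157) of set A. In set A the sensory neuron marker list (mean log2 level) was 8.245 and 8.306 with MC903 against 8.039 and 8.072 with ethanol. In set B the list was 7.943 to 8.027 against 7.721 to 7.922, and its part in the Calca values was not tested.

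The other ganglion genes did not pass at day 8. Tac1 stood at 306 ± 71.3 cpm with MC903 and 256 ± 24.6 cpm with ethanol (log2 fold change 0.26 ± 0.15, adjusted p = 0.74). Its MC903 libraries held 183, 367, 335, 326 and 318 cpm, of which 4 lay above every ethanol library and 1 below all of them, and without that lowest library (MC903 replicate 1 of set A) Tac1 passed at 0.42 (adjusted p = 0.059). Adcyap1 stood at 36.7 ± 7.47 against 28.98 ± 4.70 cpm, Cartpt at 6.51 ± 1.44 against 5.13 ± 1.27 cpm and Calcb at 37.0 ± 5.72 against 35.3 ± 4.55 cpm, all with overlapping ranges. The 95% interval for Calcb ran from −0.19 to 0.32 on the log2 scale.

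Earlier in the model no gene of the 9 passed. At day 1 none of 8 tested passed, where 0.0% of all genes did (none of the 8 at an unadjusted p below 0.05, and none by DESeq2). Calca did not differ, at 706, 375, 591 and 691 cpm with MC903 and 455, 635, 627 and 512 cpm with ethanol. Adcyap1 stood at 9.99, 15.8, 25.2 and 33.2 cpm with MC903 against 39.4, 26.99, 29.7 and 36.5 cpm with ethanol (log2 fold change −0.70 ± 0.35, adjusted p = 0.57). The 2 lowest of these MC903 libraries, replicates 1 and 2, also held the least sensory neuron marker RNA (mean log2 level of 12 markers 6.10 and 6.81, against 7.49 to 7.95 in ethanol) and the most central glia marker RNA (6.55 and 7.11, against 2.65 to 5.14 in ethanol). The part of these markers in the result was not tested. In such bulk tissue, fewer cells of a type and less RNA per cell cannot be told apart.

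At day 2 none of 8 tested passed, where 0.0% of all genes did (none at an unadjusted p below 0.05, and none by DESeq2). Calca stood at 581, 463 and 511 cpm with MC903 and 497 and 627 cpm with ethanol. Cartpt, the CART gene, passed only without ethanol replicate 2 (log2 fold change 0.81, adjusted p = 0.068), in a fit that called 4899 genes where the full fit called 0.

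At day 5 none of 8 tested passed, where 0.00823% of all genes did (2 of the 8 at an unadjusted p below 0.05, none by DESeq2). Adcyap1, the PACAP gene, stood at 43.7, 43.5 and 36.7 cpm with MC903 and 29.4, 21.9 and 25.3 cpm with ethanol. The groups did not overlap, and the log2 fold change was 0.73 ± 0.19 (adjusted p = 0.9996). Calca stood at 734, 558 and 757 against 384, 506 and 561 cpm, overlapping by 1 library, at 0.55 ± 0.19 (adjusted p = 0.9996). Calcb did not overlap either, at 31.2, 31.4 and 32.5 against 24.2, 24.7 and 29.4 cpm (0.32 ± 0.16). MC903 libraries that all lay above ethanol were found for 3.24% of genes here. The sensory neuron list did the same (7.84 to 8.20 against 7.49 to 7.80). The pituitary list was 6.20 and 5.40 in ethanol replicates 2 and 3, against 1.13 in ethanol replicate 1 and 1.225 to 3.34 with MC903. The part of both lists in these values was not tested. Same-numbered libraries deviated together at day 5, and when replicate number was added as a block these genes stayed short of the threshold (Adcyap1 adjusted p = 0.26, Calca 0.58) while the count of all genes called moved from 2 to 54.

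**Figure D2:**
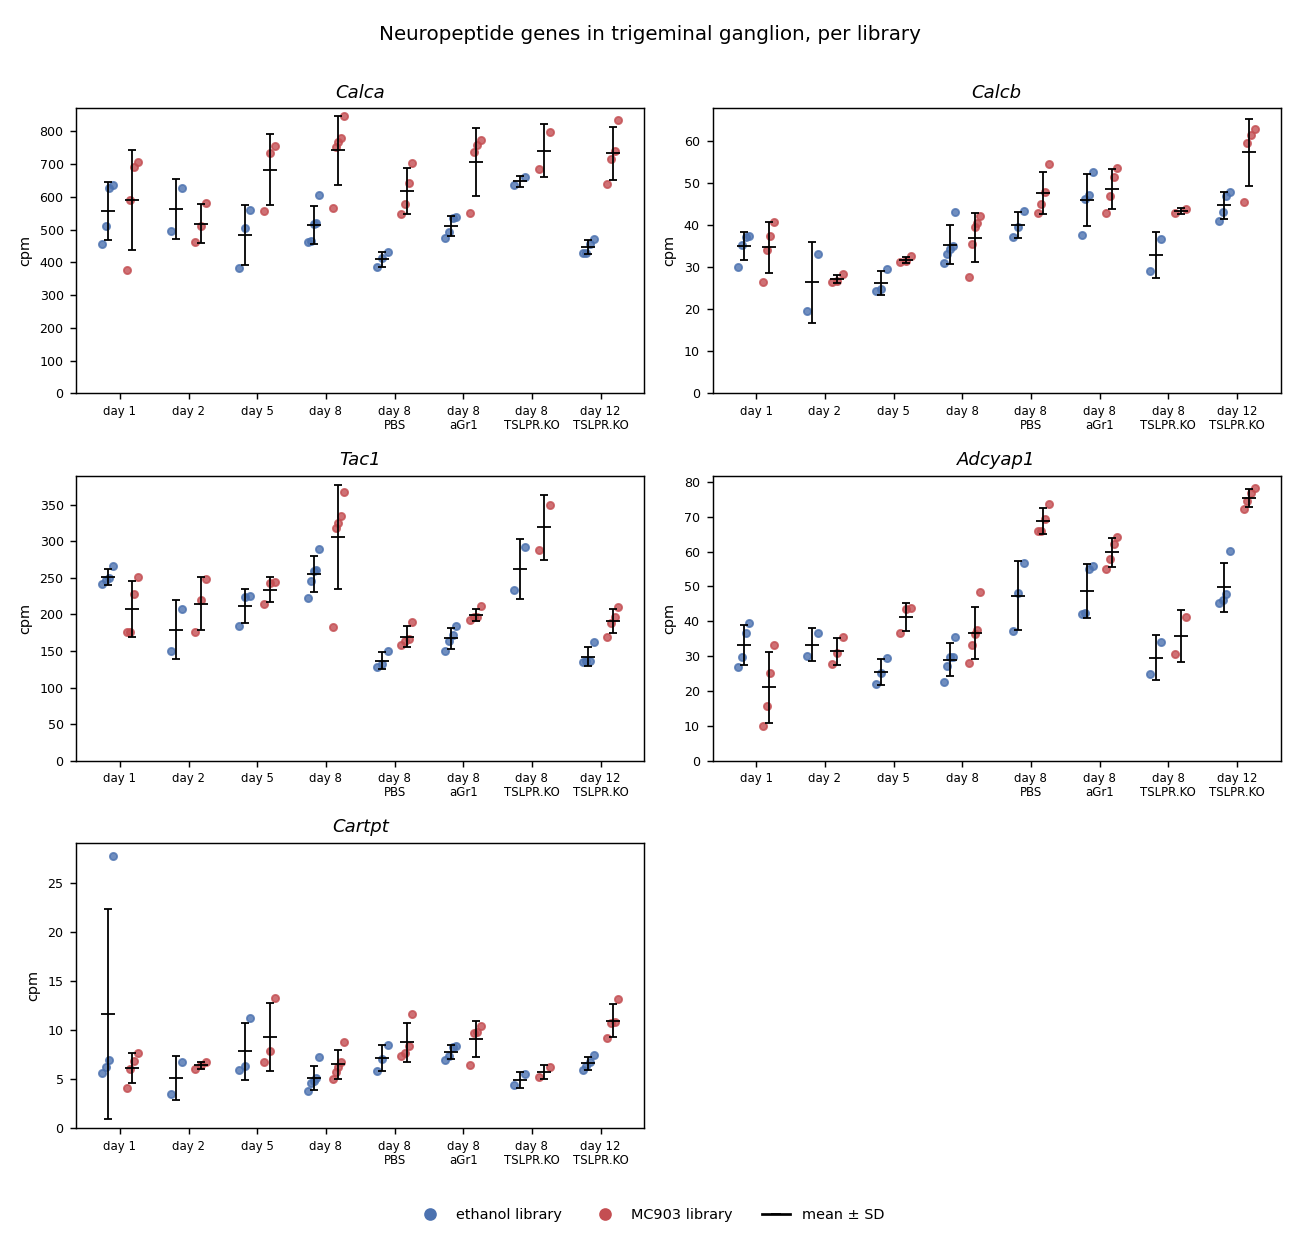
Cpm per library of Calca, Calcb, Tac1, Adcyap1 and Cartpt in trigeminal ganglion, ethanol and MC903 side by side in each of the 8 comparisons, one point per library, with the group mean as a line. The Calca groups separate without overlap in the injected mice and in TSLPR.KO mice, and Calcb overlaps in most comparisons.

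Mice that received injections were compared at day 8 to see whether the changes were present with neutrophils depleted. With PBS, the injection control, Calca rose 1.50-fold, Adcyap1 1.44-fold and Tac1 1.23-fold. These 3 were the genes called of 7 tested, where 3.36% of all genes were called (1.91% in the higher direction). That background of 796 genes ran from 246 to 3602 when 1 library was left out. Calca stood at 704, 578, 643 and 547 cpm with MC903 and 385, 412 and 431 cpm with ethanol, and the groups did not overlap. The log2 fold change was 0.59 ± 0.08 (adjusted p = 0.0015), and it passed whichever of the 7 libraries was left out. In a single fit over all ganglion libraries it did not pass (0.60, adjusted p = 0.31). Adcyap1 stood at 73.7, 65.98, 69.2 and 65.9 against 37.2, 48.2 and 56.8 cpm, again without overlap, at 0.52 ± 0.11 (adjusted p = 0.024), and was lost without ethanol replicate 2 (adjusted p = 0.116). Tac1, the substance P gene, stood at 190.1, 167, 158 and 164 against 128.2, 132.9 and 149.8 cpm without overlap, at 0.30 ± 0.07 (adjusted p = 0.042), and was lost without MC903 replicate 1 (0.106) or ethanol replicate 1 (0.182) or 2 (0.224). All MC903 libraries lay above all ethanol libraries for 7.71% of genes in this comparison. Calcb at 47.5 ± 5.02 against 39.95 ± 3.10 cpm did not pass (0.24 ± 0.08, adjusted p = 0.19) but passed without MC903 replicate 4 (0.29, adjusted p = 0.017). The sensory neuron list was 8.26 to 8.40 with MC903 and 8.17 to 8.19 with ethanol, with 3 of its 12 genes called higher, and its part was not tested.

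With aGr1, Calca rose 1.40-fold and was the 1 gene called of 7 tested, where 1.88% of all genes were called (0.875% higher). It stood at 739, 551, 757 and 775 cpm with MC903 and 539, 475, 494 and 536 cpm with ethanol without overlap (3.43% of genes lay so), at 0.48 ± 0.11 (adjusted p = 0.066). It was lost without MC903 replicate 1 (0.122), 3 (0.150) or 4 (0.190) or ethanol replicate 1 (0.129), 3 (0.235) or 4 (0.1002), and MC903 replicate 2, the low library, stood apart from the other 3. That library held the least central glia marker RNA of its group (1.77, against 2.73 to 4.83) and a sensory neuron level within the range of the others (7.95), and the part of these markers was not tested. Tac1 did not overlap either, at 192, 196, 211 and 197 against 185, 164, 150.2 and 172 cpm, but did not pass (0.26 ± 0.09, adjusted p = 0.20). Adcyap1 at 59.8 ± 4.17 against 48.8 ± 7.74 cpm and Calcb at 48.6 ± 4.77 against 45.8 ± 6.20 cpm overlapped. The sensory neuron list overlapped as well (7.88 to 8.23 against 7.99 to 8.29). The fibroblast and meninges list was wholly lower with MC903 (4.15 to 5.03 against 5.25 to 5.65, 2 of 5 genes called lower), and its part was not tested.

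The difference between the MC903 effect in aGr1-injected and in uninjected mice was tested directly. For none of the genes did it pass, where 0.0% of all genes did (none of the 8 at an unadjusted p below 0.05, none by DESeq2). For Calca it was −0.04 ± 0.14 on the log2 scale with a 95% interval of −0.34 to 0.25, for Adcyap1 −0.03 ± 0.20 (−0.44 to 0.37) and for Tac1 0.01 ± 0.19 (−0.39 to 0.41). Differences of any size within these intervals remain compatible with the values of these libraries. Set against uninjected mice, the effect of aGr1 is mixed with that of injection. With PBS-injected in place of uninjected mice the same test called 9 of 25760 genes, against 0 of 27015. Ethanol levels differed between these experiments, with Tac1 at 137 ± 11.3 cpm in PBS-injected against 256 ± 24.6 cpm in uninjected mice and Adcyap1 at 47.4 ± 9.84 against 28.98 ± 4.70 cpm, and injection and experiment cannot be told apart.

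TSLPR.KO mice were compared to see whether these genes moved without the TSLP receptor. At day 8, with 2 libraries per group, none of 7 tested passed, where 0.0% of all genes did (1 of the 7 at an unadjusted p below 0.05, none by DESeq2). Calca stood at 684 and 798 cpm with MC903 and 636 and 660.2 cpm with ethanol (0.26 ± 0.17, 95% interval −0.12 to 0.65). Calcb, at 42.8 and 43.7 against 29.04 and 36.8 cpm, was the gene with the unadjusted p below 0.05 (0.47 ± 0.19, adjusted p = 0.61). Both were higher in all MC903 libraries, as were 17.4% of genes. The difference from the wild-type effect was −0.27 ± 0.16 for Calca (−0.61 to 0.07) and 0.40 ± 0.22 for Calcb (−0.06 to 0.87), and none of the 9 genes passed, where 0.0% of all genes did (1 of the 9 at an unadjusted p below 0.05, Ucn, with 0 and 0 counts with MC903 and 7 to 12 with ethanol in TSLPR.KO, and none by DESeq2). The general neuron list was 8.95 to 9.36 with MC903 against 9.41 to 9.66, and the keratinocyte list 0.41 to 4.34 against −0.05 to 0.36, and their part was not tested.

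At day 12 in TSLPR.KO mice, 4 of 8 genes tested rose, where 0.304% of all genes were called (0.289% higher): Calca 1.67-fold, Cartpt 1.69-fold, Adcyap1 1.55-fold and Tac1 1.36-fold. Calca stood at 717, 835, 742 and 640.1 cpm with MC903 and 457, 471, 429 and 430.1 cpm with ethanol, at 0.74 ± 0.10 (adjusted p = 0.010), and passed whichever of the 8 libraries was left out. Adcyap1 stood at 76.8, 74.5, 72.3 and 78.3 against 60.1, 45.2, 46.1 and 47.7 cpm, at 0.63 ± 0.09 (adjusted p = 0.017), and was lost without ethanol replicate 3 (0.105). None of the 4 genes overlapped between groups, a pattern held in the higher direction by 2.29% of genes.

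Tac1 stood at 169.7, 188, 197 and 209.7 against 162, 136, 137 and 135 cpm (0.45 ± 0.08, adjusted p = 0.067) and was lost without any 1 of MC903 replicates 2, 3 and 4 and ethanol replicates 2, 3 and 4 (adjusted p between 0.128 and 0.299). Cartpt stood at 13.2, 10.8, 10.8 and 9.17 against 6.72, 5.97, 7.49 and 6.37 cpm (0.76 ± 0.14, adjusted p = 0.070) and passed in 1 of the 8 fits that left out a library, the one without MC903 replicate 4. Calcb did not pass (57.3 ± 7.998 against 44.6 ± 3.23 cpm, 0.38 ± 0.09, adjusted p = 0.23) but did without MC903 replicate 1 (0.46, adjusted p = 0.026). Same-numbered libraries deviated together here too. When replicate number was added as a block the same 4 genes passed (Calca adjusted p = 0.00083, Adcyap1 0.0018, Cartpt 0.019, Tac1 0.030), while the count of all genes called moved from 79 to 356. The sensory neuron list was 8.35 to 8.46 with MC903 and 8.19 to 8.33 with ethanol, with 1 of its 12 genes called higher, and its part was not tested. Wild-type ganglia of day 12 were not used here, so no comparison between genotypes is made at that day.

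Across the 6 ganglion comparisons from day 5 on, the 5 genes with more than 3 counts in every ganglion library (Calca, Calcb, Tac1, Adcyap1 and Cartpt) gave 30 estimates, all 30 of them above 0, where 50.5 to 51.2% of all genes had an estimate above 0. Most of the 30 did not pass the test. At day 1, 1 of the 5 was above 0 and 4 were below, and at day 2, 3 were above and 2 below. The 5 genes were read from the same libraries, so the 30 estimates are not independent. Neither this tally nor its start at day 5 was among the planned comparisons. The part of the sensory neuron markers in them was not tested. The median of the 5 was 0.32 at day 5, 0.32 at day 8, 0.30 with PBS, 0.26 with aGr1, 0.35 in TSLPR.KO at day 8 and 0.63 in TSLPR.KO at day 12, where the median over all genes was at most 0.0090. In a fit with 1 MC903 effect over all 8 ganglion comparisons, added after the data were seen, Calca (0.42 ± 0.06, adjusted p = 1.0e-05), Tac1 (0.21 ± 0.06, adjusted p = 0.030), Calcb (0.18 ± 0.05, adjusted p = 0.044) and Adcyap1 (0.27 ± 0.09, adjusted p = 0.094) were higher, and Cartpt did not pass (0.20 ± 0.13, adjusted p = 0.44). That fit called 1761 of 30382 genes.

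**Figure D3:**
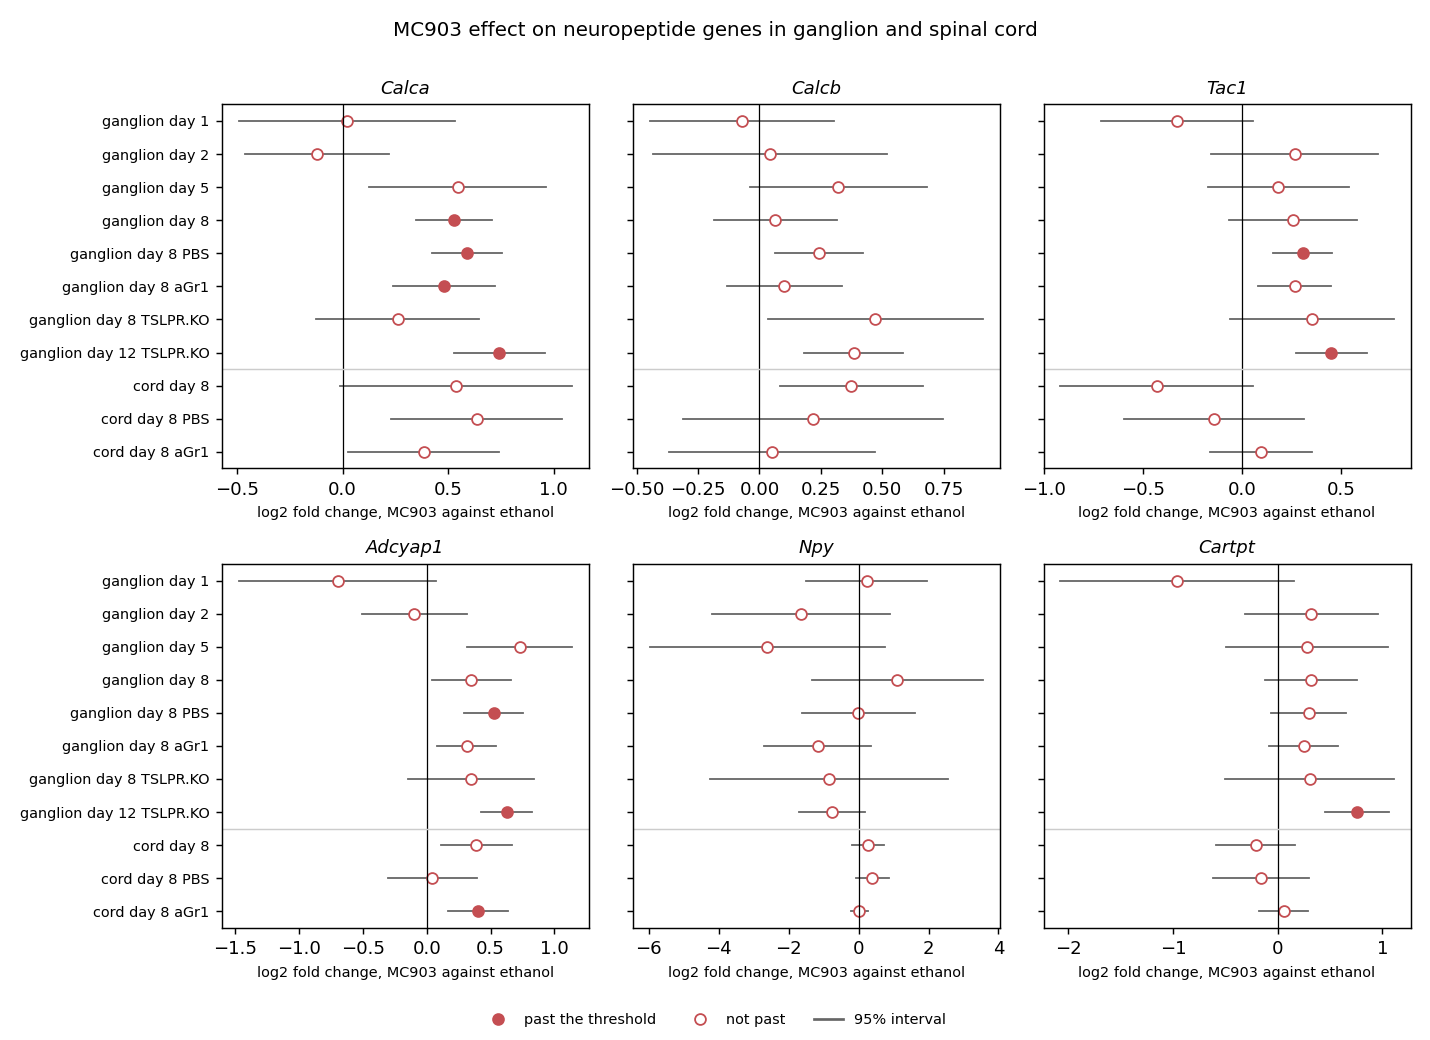
Log2 fold change of MC903 against ethanol with 95% intervals for Calca, Calcb, Tac1, Adcyap1, Npy and Cartpt in each ganglion and cord comparison, filled where the adjusted p passed the threshold of the tissue. Filled points are Calca in 4 ganglion comparisons, Adcyap1 in 2 ganglion comparisons and 1 cord comparison, Tac1 in 2 and Cartpt in 1.

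Other genes of the pathway were read from lists of 20 receptors, 13 genes of peptide processing and the secretory granule, and 19 other neuropeptides. Among all ganglion genes tested, 3.36% were called in either direction with PBS, 1.88% with aGr1 and 0.304% in TSLPR.KO at day 12. In the remaining ganglion comparisons the share was at most 0.16%. Whether the lists differed from these shares was not tested. In the ganglion of PBS-injected mice, 1 of 17 receptors tested rose, Npy1r, a receptor of neuropeptide Y (0.45 ± 0.09). Of 13 processing and granule genes 2 rose, Scg3 (0.35 ± 0.06) and Scg2 (0.31 ± 0.06), which build dense-core granules, and 1 fell, Mme, the peptide-degrading neprilysin (−0.44 ± 0.11). Of 10 other neuropeptides 1 rose, Nmb, neuromedin B (0.32 ± 0.08). With aGr1, Ramp2 (0.53 ± 0.12) was the 1 of 18 receptors and Scg2 (0.44 ± 0.11) the 1 of 13 processing genes that rose. In TSLPR.KO at day 12, Scg2 (0.53 ± 0.09) rose as 1 of 13 and Gal, the galanin gene (0.69 ± 0.13), as 1 of 13 other neuropeptides, and none of 18 receptors passed. No list gene passed at days 1, 2, 5 or 8 or in TSLPR.KO at day 8, where 6, 1, 5, 11 and 3 list genes had an unadjusted p below 0.05.

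Likeness was described over the 56 ganglion libraries, which share treatment, day and tissue composition, by Pearson's r of log2(cpm + 0.5) against 16958 genes. Calca was most like Tmem100 (r = 0.78), Pkib (0.74) and Bdnf (0.70). Adcyap1 was most like Tmem233 (0.89), F2rl2 (0.89) and Tle1 (0.88), and Tac1 was most like Tmem183a (0.85), Gcsh (0.84) and Psmd14 (0.84). Calcb was most like Fkbp1b (0.87), Cyb5r1 (0.85) and Wdr83os (0.85). Cartpt was most like Gal (0.69), Cited1 (0.67) and Ngb (0.67).

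In the spinal cord the question was whether these genes changed in the segments that receive input from treated back skin. In uninjected mice at day 8 none of the 9 passed, where 12.2% of all genes did (3 of the 9 at an unadjusted p below 0.05 and 3 by DESeq2: Calcb, Adcyap1 and Nmu). Calca stood at 60.8, 56.99, 111 and 92.0 cpm with MC903 and 84.1, 49.7, 53.5, 48.8 and 36.6 cpm with ethanol (0.54 ± 0.26, adjusted p = 0.21). Adcyap1 stood at 16.9, 13.01, 14.8 and 14.3 against 7.72, 12.4, 11.3, 11.9 and 13.3 cpm (0.39 ± 0.13, adjusted p = 0.069). In both genes the groups overlapped, and 1 ethanol library, replicate 1, was the highest of the 5 for Calca and the lowest for Adcyap1.

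That library also stood apart for Tac1, at 66.7 cpm against 31.8, 32.01, 34.5 and 33.7 cpm in the other ethanol and 29.4, 28.8, 29.8 and 32.1 cpm in the MC903 libraries. It held less Schwann cell marker RNA (3.36 against 4.25 to 4.48) and less fibroblast and meninges marker RNA (3.20 against 4.16 to 4.50) than the other ethanol libraries. Without it, Calca (0.80, adjusted p = 0.0074) and Adcyap1 (0.30, adjusted p = 0.0496) passed in the higher and Nmu (−0.52, adjusted p = 0.012) in the lower direction. With it, Nmu stood at 3.67 ± 0.436 cpm with MC903 and 5.01 ± 0.956 cpm with ethanol (−0.44 ± 0.16, adjusted p = 0.088). Calcb stood at 13.9 ± 2.55 against 10.7 ± 1.51 cpm (0.37 ± 0.14, adjusted p = 0.094), and Npy, Vip, Cartpt and Ucn had intervals that included 0.

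In aGr1-injected mice, Adcyap1 rose 1.32-fold and was the 1 of 9 genes called, where 11.3% of all genes were. It ran from 18.5 to 29.7 cpm with a median of 26.2 cpm in 8 MC903 libraries and from 16.2 to 22.05 cpm with a median of 18.1 cpm in 6 ethanol libraries, 5 of the MC903 libraries lying above every ethanol library. The log2 fold change was 0.40 ± 0.11 (adjusted p = 0.025), lost without MC903 replicate 7 or ethanol replicate 1, 2 or 3 (adjusted p between 0.059 and 0.070) and when replicate number was blocked (0.31, adjusted p = 0.095). Calca ran from 14.2 to 28.97 cpm with a median of 25.3 cpm against 12.7 to 25.2 cpm with a median of 16.5 cpm (0.39 ± 0.17, adjusted p = 0.17). The other 7 genes had intervals that included 0.

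In PBS-injected mice, with 2 libraries per group, none of 8 tested passed, where 0.0% of all genes did (1 of the 8 at an unadjusted p below 0.05, none by DESeq2). That 1 was Calca, at 24.7 and 26.8 cpm with MC903 against 14.2 and 18.3 cpm with ethanol (0.64 ± 0.17, adjusted p = 0.56), which did not overlap, as 18.8% of genes did in this direction, and which passed without MC903 replicate 1 (0.73, adjusted p = 3.1e-06) or replicate 2 (0.53, adjusted p = 0.0010), where a lone library is assumed to vary like the other group. The 4 fits without a library called 93 to 6075 of all genes, against 0 in the full fit. Npy passed without MC903 replicate 2 (0.52, adjusted p = 0.032). Adcyap1 overlapped between groups, at 19.5 and 21.3 against 18.6 and 20.3 cpm (0.04 ± 0.15). The difference of the MC903 effect between aGr1-injected and uninjected mice passed for none of the 9 genes, where 0.532% of all genes did (1 of the 9 at an unadjusted p below 0.05, Nmu at 0.55 ± 0.21, adjusted p = 0.25, and none by DESeq2). With PBS-injected in place of uninjected mice the same test called 0 of 28415 genes, against 153 of 28747. In a fit with 1 MC903 effect over the 3 cord comparisons, added after the data were seen, Adcyap1 (0.34 ± 0.08, adjusted p = 0.0022) and Calca (0.47 ± 0.14, adjusted p = 0.012) were higher. That fit called 6221 of 29280 genes, so that 2 of 9 is close to the share over all genes.

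Central glia markers moved with MC903 in every cord comparison. The mean log2 level of 5 of them (Mog, Mag, Opalin, Gfap and Aqp4) was 7.69 to 7.85 with MC903 against 8.78 to 8.87 in uninjected mice, 7.77 to 8.04 against 8.54 to 8.66 with PBS and 7.56 to 8.07 against 8.54 to 8.72 with aGr1, all 5 called lower in the first and the last. General neuron markers overlapped between groups in all 3. Fibroblast and meninges markers were wholly lower in uninjected mice (2.61 to 3.03 against 3.20 to 4.50, 4 of 5 called), and satellite glia markers with PBS (7.93 to 8.30 against 8.41 to 8.48) and aGr1 (7.75 to 8.04 against 8.11 to 8.28). In the PBS comparison sensory neuron (1.85 to 1.97 against 1.78 to 1.81), Schwann cell (4.76 to 5.85 against 3.96 to 4.12) and motor neuron markers (4.08 to 4.33 against 3.91 to 3.95) were higher and skeletal muscle markers (0.69 to 0.83 against 2.50 to 3.50) lower with MC903. Cpm values are shares of a library's total, and the part of these shifts in the cord values of Calca and Adcyap1 was not tested. Ethanol levels of Calca also differed between cord experiments, at 54.5 ± 17.7 cpm in uninjected against 16.3 ± 2.93 cpm in PBS-injected and 17.4 ± 4.54 cpm in aGr1-injected mice, and injection and experiment cannot be told apart.

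**Figure D4:**
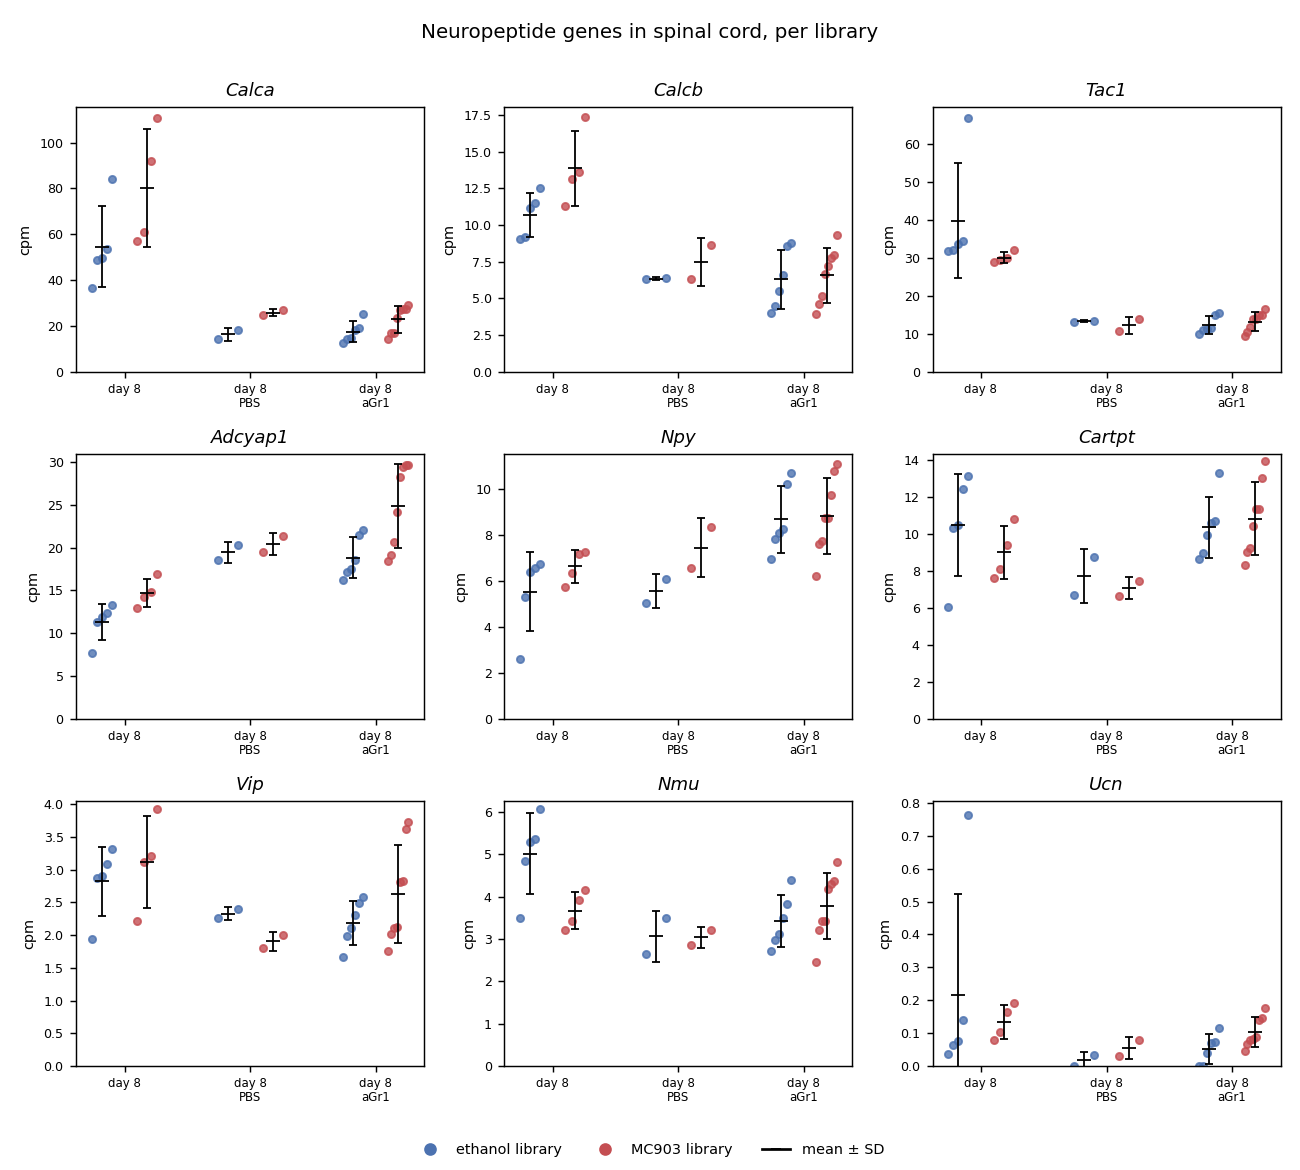
Cpm per library of the 9 genes in spinal cord at day 8, ethanol and MC903 side by side in uninjected, PBS-injected and aGr1-injected mice, one point per library, with the group mean as a line. Uninjected ethanol replicate 1 is the high point of Tac1, and 5 of 8 aGr1 MC903 libraries lie above all ethanol libraries for Adcyap1.

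In the same lists, uninjected cord had 2 of 13 processing and granule genes higher, Scg5 (0.60 ± 0.10) and Scg2 (0.38 ± 0.06), and none of 19 receptors. Of 14 other neuropeptides 3 rose, Penk, the enkephalin precursor (0.47 ± 0.10), Adm, adrenomedullin (0.76 ± 0.16), and Crh, corticotropin-releasing hormone (1.50 ± 0.34), and Sst, somatostatin, fell (−0.34 ± 0.09). With aGr1, 4 of 13 processing genes rose, among them the carboxypeptidase Cpe (0.21 ± 0.04), Scg5 (0.33 ± 0.07) and Scg2 (0.25 ± 0.06), as did Crh (2.19 ± 0.38), Penk (0.32 ± 0.07) and Gal (0.44 ± 0.14) of 15 other neuropeptides and 1 of 19 receptors, Nmur2, the receptor of neuromedin U (0.38 ± 0.09). With PBS no list gene passed, and 3 of 45 tested had an unadjusted p below 0.05. Among all cord genes tested, 12.2% were called in either direction in uninjected mice, 11.3% with aGr1 and 0.0% with PBS. Whether the lists differed from these shares was not tested.

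In skin Calcb, present in all 60 libraries, fell in 5 of 9 comparisons. In uninjected wild-type mice at day 8 it ran from 0.395 to 1.85 cpm with a median of 0.415 cpm with MC903 (n = 5) and from 1.78 to 3.20 cpm with a median of 2.39 cpm with ethanol (n = 6), overlapping by 1 MC903 library, at −1.86 ± 0.41 (adjusted p = 0.0055). With aGr1 it stood at 0.640, 0.198, 0.391 and 0.942 against 1.97, 1.97, 3.66 and 2.13 cpm (−2.51 ± 0.39, adjusted p = 0.0016), and in libraries labelled BLT1.KO at 0.524, 0.305 and 0.246 against 3.12, 3.38 and 4.55 cpm (−3.41 ± 0.37, adjusted p = 0.00025). Neither overlapped, and 7.34% of all genes with aGr1 and 19.9% in BLT1.KO lay wholly lower with MC903. All 3 calls held whichever library was left out.

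In TSLPR.KO skin Calcb fell at day 12, from 1.87, 4.03 and 2.0015 cpm to 0.478, 0.584, 1.14 and 0.609 cpm (−2.04 ± 0.34, adjusted p = 0.0066), held in each of 7 fits without a library but not when replicate number was blocked (adjusted p = 0.070). At day 8 it fell from 4.91 and 2.95 cpm to 1.21, 1.32 and 1.13 cpm (−1.65 ± 0.36, adjusted p = 0.048), a call lost without MC903 replicate 1, 2 or 3 or ethanol replicate 1 (adjusted p between 0.120 and 0.280). The groups did not overlap at either day, as for 4.93% of genes in this direction at day 12 and 16.6% at day 8. In PBS-injected mice it stood at 0.5682 and 1.78 against 2.79, 8.21 and 3.04 cpm and did not pass (−1.92 ± 0.70, adjusted p = 0.22), without overlap, as 17.2% of genes. At day 5 it did not pass either (−1.35 ± 0.61, adjusted p = 0.18) but did without MC903 replicate 3 (−2.36, adjusted p = 0.030), and the estimates of day 1 (−0.26 ± 0.30) and day 2 (−0.38 ± 0.46) were small beside their errors.

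Calca rose in 2 skin comparisons from low levels, 0 to 4 counts per ethanol library with aGr1 and 3 to 21 counts in BLT1.KO. In libraries labelled BLT1.KO it stood at 1.50, 1.12 and 1.002 cpm with MC903 and 0.312, 0.241 and 0.0612 cpm with ethanol (2.50 ± 0.59, adjusted p = 0.014), lost without MC903 replicate 1 (adjusted p = 0.051). With aGr1 it stood at 0.868, 0.474, 0.391 and 0.496 against 0, 0.110, 0.181 and 0.130 cpm (2.02 ± 0.60, adjusted p = 0.030), lost without MC903 replicate 1 (0.082) or 2 (0.052) or ethanol replicate 2 (0.056) and with the block (0.076). Neither overlapped, as 22.9% of genes in BLT1.KO and 22.4% with aGr1 lay wholly higher. In uninjected mice at day 8 it did not differ (−0.03 ± 0.75), with ethanol libraries at 5.11, 1.26 and 1.39 cpm in label set A and 0, 0.191 and 0.0537 cpm in set B. The library at 5.11 cpm held more sensory neuron marker RNA (2.40) than the other ethanol libraries of that day (0.62 to 1.45), whose part was not tested. With PBS Calca did not pass (2.67 ± 0.70, adjusted p = 0.10) but did without ethanol replicate 2 (3.62, adjusted p = 0.027).

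Nmu and Cartpt also passed in skin, at very low levels. Nmu, neuromedin U, rose in TSLPR.KO at day 12 from 1 to 4 counts per library to 20 to 155 counts (4.25 ± 0.88, adjusted p = 0.018), a call lost without ethanol replicate 1 (0.063), 2 (0.051) or 3 (0.058) and with the block (0.076), and stood at 27 to 65 against 3 to 6 counts at day 8 (3.09 ± 0.73, adjusted p = 0.067). Cartpt passed in uninjected mice at day 8 at 2 to 12 counts against 0 to 1, at least 2.05-fold higher against a floor of 3 counts per library, a call lost without 1 MC903 library of set A (replicate 1, adjusted p = 0.058). In all, 2 of 7 genes tested passed at day 8 where 23.4% of all genes did, 2 of 6 with aGr1 (32.6%), 1 of 5 in TSLPR.KO at day 8 (2.44%), 2 of 6 in BLT1.KO (28.6%) and 2 of 6 in TSLPR.KO at day 12 (10%). None of 6 passed at day 1 (13% of all genes), of 4 at day 2 (0.257%), of 7 at day 5 (14.9%) or of 4 with PBS (3.99%), where the genes of the 9 with an unadjusted p below 0.05 were 0, 0, 0 and 2 and those called by DESeq2 0, 0, 0 and 1.

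Other cell types moved with MC903 in the same skin. The skeletal muscle list was lower, with all 5 of its genes called at day 8 (7.98 to 8.80 against 8.76 to 10.98) and in BLT1.KO (8.71 to 9.69 against 11.25 to 11.85) and 4 of 5 with aGr1 (9.58 to 10.34 against 10.42 to 11.35) and in TSLPR.KO at day 12 (9.39 to 10.15 against 10.003 to 11.16). The sensory neuron list was near its floor throughout skin (0.28 to 2.40, against 6.10 to 8.46 in ganglion) and did not overlap between groups with aGr1 (0.78 to 0.88 with MC903 against 0.28 to 0.71) and, in the other direction, in TSLPR.KO at day 8 (0.57 to 0.84 against 1.04 to 1.16). The Schwann cell list was wholly lower in BLT1.KO (4.26 to 4.54 against 5.08 to 5.12, 4 of 5 genes called lower and 1 higher) and in TSLPR.KO at day 8 (4.10 to 4.21 against 4.36 to 5.13). The general neuron list was wholly lower in both as well (−0.31 to 0.00 against 0.29 to 0.55, and −0.26 to 0.62 against 0.68 to 0.69), at day 2 and with PBS. The sympathetic neuron list was wholly lower at days 1, 2 and 8, in BLT1.KO and in TSLPR.KO at day 8. The part of these markers in the values of Calca and Calcb was not tested. Of the receptors tested in skin, 5 of 17 fell at day 1, led by Npy4r (−1.48 ± 0.26), and 4 of 16 at day 5, led by Vipr1, a VIP receptor (−2.23 ± 0.31). At day 8, 3 of 15 rose and 4 fell, led by Tacr1, the receptor of substance P (1.75 ± 0.25). Tacr1 also rose with PBS (1.60 ± 0.24, 1 of 15), with aGr1 (1.75 ± 0.20, where 2 of 15 rose and 6 fell), in BLT1.KO (1.86 ± 0.23, where 4 of 16 rose and 8 fell) and in TSLPR.KO at day 12 (1.10 ± 0.26, where 1 of 16 rose and 2 fell). Ramp1, a CGRP receptor subunit, fell at day 5 (−1.21 ± 0.30), at day 8 (−0.90 ± 0.20), with aGr1 (−1.63 ± 0.16), in BLT1.KO (−2.02 ± 0.22) and in TSLPR.KO at day 12 (−1.03 ± 0.17). Its partner Calcrl moved the other way at day 8 (0.93 ± 0.18), with aGr1 (0.54 ± 0.15) and in BLT1.KO (0.49 ± 0.14). At day 1 Calcrl fell (−0.82 ± 0.18). Tacr1 in BLT1.KO, Ramp1 at day 8 and Calcrl were named after their values were seen. In TSLPR.KO at day 8, 2 of 16 fell, Vipr1 (−1.57 ± 0.31) and Mrgprb2, a mast cell receptor of basic peptides (−1.60 ± 0.35). At day 2 none of 15 passed. Among all skin genes tested, the share called in either direction ran from 0.257% at day 2 to 32.6% with aGr1. It was 13% at day 1, 14.9% at day 5, 23.4% at day 8 and 28.6% in BLT1.KO. Whether the receptor list differed from these shares was not tested. The lists of processing genes and other neuropeptides are not named by gene in skin. In uninjected wild-type mice at day 8, 3 of 13 processing genes rose and 3 fell, and 5 of 13 other neuropeptides rose and 1 fell.

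**Figure D5:**
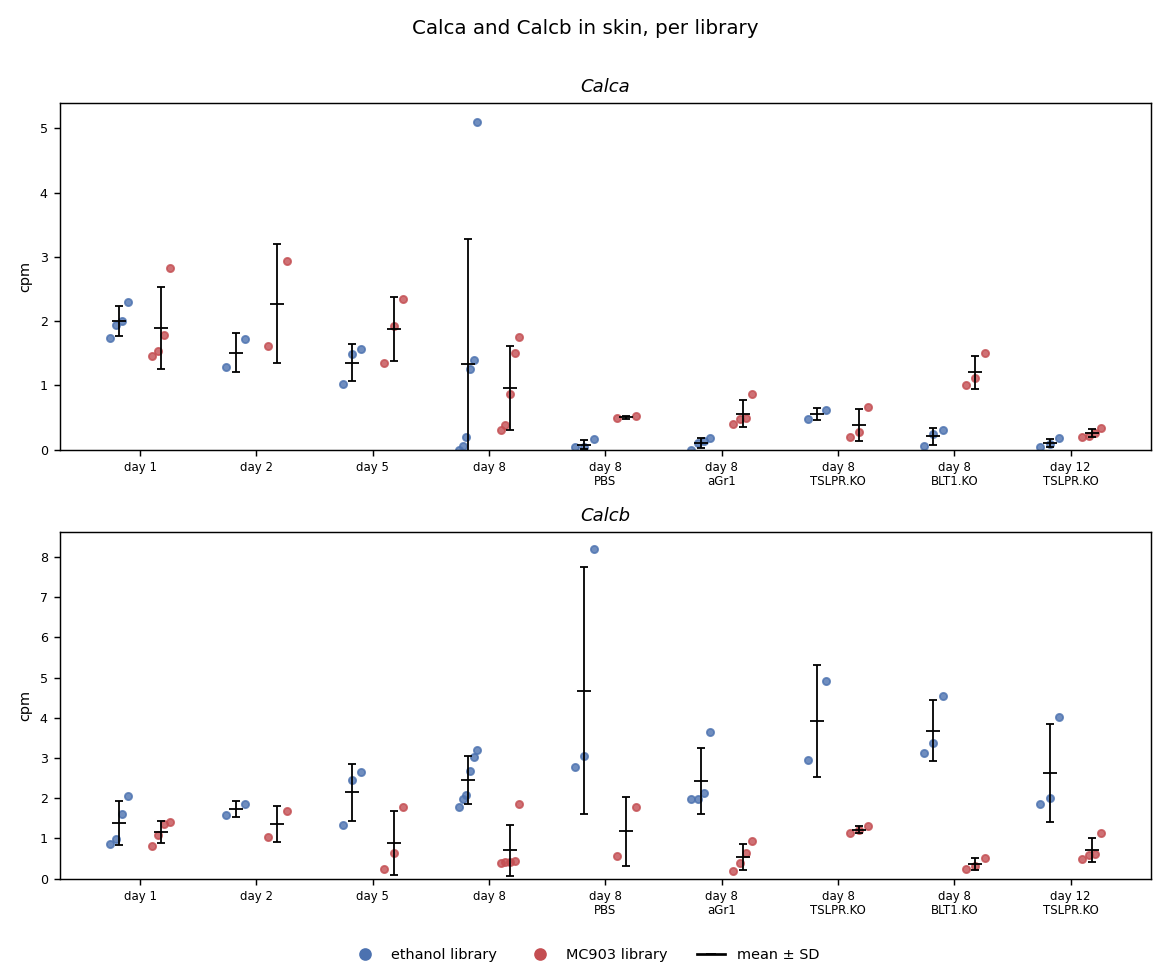
Cpm per library of Calca and Calcb in skin, ethanol and MC903 side by side in the 9 comparisons, one point per library, with the group mean as a line; day 2 MC903 replicate 3 is not drawn. Calcb lies lower with MC903 in the day 8 and day 12 comparisons, and Calca higher in the aGr1-injected and BLT1.KO comparisons.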

How the data were processed

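Gene counts were deposited by the authors as raw, whole-number counts per Ensembl gene for 162 libraries. By the methods and the submitters' processing notes, reads were aligned with Bowtie2 and TopHat to mm10 and counted with htseq-count; the annotation release and strand setting are not given in the sources used here. Symbols came from GENCODE M21 (GRCm38) for 45143 of 46078 identifiers. The 5 tally lines were left out (no-feature reads 6.15 to 21.5%, ambiguous reads 1.77 to 13.2%). Total counts per library limit the precision of genes near 3 counts.

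Of the 162 libraries 143 were used and grouped by GEO's labels. Each comparison of MC903 with ethanol was fitted on its own libraries with edgeR 4.0.16 in R 4.3.3 (quasi-likelihood test, TMM, genes with at least 10 counts in total, Benjamini-Hochberg adjustment), at 0.1 in ganglion and 0.05 in cord and skin, the study's thresholds; standard errors are |log2 fold change| divided by the square root of F. The scripts were tested on simulated data. Alternatives were DESeq2 1.42.0, other filters, one fit per tissue, label sets, a replicate block and leaving out each library. Same-numbered libraries deviated together in the day 5 ganglion (r 0.107 to 0.284) and in TSLPR.KO ganglion at day 12 (r 0.146 to 0.458), a hint from the data, since no label pairs them. Marker levels are means of log2(cpm + 0.5). All 9 members were looked up in every comparison, but not all are described in the text. A member left unnamed in a comparison did not pass there or had too few counts to be tested. List genes were named only when called, at most 3 per list and comparison. They were taken smallest p first, apart from those said to be named after their values were seen. For likeness 3 genes were named per member. The members and lists were chosen with earlier results of these data known.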

Additional observations from a re-analysis of the deposited data

Results flagged for a closer look

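Of 103 checks of a gene in a group of 4 to 10 libraries, 9 had a library far from the rest, and chance alone gives about 1 in 20. In the day 1 ganglion, MC903 replicate 1 was highest for Vip at 1.88 cpm (others at most 0.250) and for Npy at 2.08 cpm (others at most 0.517), and ethanol replicate 1 was highest for Cartpt at 27.8 cpm (others 5.65 to 6.98) and had the highest pituitary marker level of its group (5.70, others 1.72 to 3.10). In the aGr1 ganglion, MC903 replicate 2 was lowest for Calca at 551 cpm (others 739 to 775). In the TSLPR.KO ganglion at day 12, ethanol replicate 1 was highest for Tac1 at 162 cpm (others 135 to 137) and for Adcyap1 at 60.1 cpm (others 45.2 to 47.7), and MC903 replicate 3 was highest for Nmu at 0.295 cpm (others 0.140 to 0.154). In the cord, uninjected ethanol replicate 1 was highest for Tac1 at 66.7 cpm (others 31.8 to 34.5). In skin, aGr1 ethanol replicate 3 was highest for Calcb at 3.66 cpm (others 1.97 to 2.13).

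Libraries kept out of the comparisons also carried these transcripts. Day 2 skin MC903 replicate 3 held 232 cpm of Calca, 10.6 of Calcb, 95.2 of Tac1, 14.9 of Adcyap1 and 2.26 of Cartpt, where the other day 2 skin libraries held at most 2.93, 1.87, 0.899, 0.144 and 0.0369 cpm. Its sensory neuron marker level was 6.40, against 1.30 to 1.51 in the other MC903 libraries of that day. Without this library, none of the 4 genes tested passed in skin of that day. Calca there had a log2 fold change of 0.53 when replicate number was added as a block (adjusted p = 0.86). The study reports raised Calca RNA in skin on that same day, beside more CGRP-stained fibres. The part of this library in that report was not tested. In 6 wild-type day 12 libraries labelled skin that held more neuron than keratinocyte marker RNA, Calca ran from 515 to 897 cpm.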

How the results depend on the processing

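Of 155 recomputed counts of called genes among the 9, 30 moved by over 1.5 times; of 1037 single estimates 29 passed only under the alternative, 16 no longer passed and 992 kept their side of the threshold, 28 of these with the other sign and no call under either setting. With DESeq2 the number called became 2 in aGr1 ganglion, 3 in uninjected cord, 1 in PBS skin, 2 in TSLPR.KO skin at day 8 and 4 for ganglion against skin, where some adjusted p were not given. One fit over each tissue gave 2 in day 1 ganglion, Adcyap1 (−0.69, adjusted p = 0.053) and Cartpt (−0.93, adjusted p = 0.079), both lower with MC903. It called 1969 of all genes in that comparison. The same kind of fit gave 0 in PBS and in aGr1 ganglion, 1 in TSLPR.KO ganglion at day 12 and 1 in uninjected cord. In skin it gave 1 at day 5, 2 with PBS and 5 in BLT1.KO. For day 8 ganglion, no label set term gave 0, set A alone 0, set B alone 0, adding PBS-injected libraries 2, and one MC903 effect over all ganglion groups 4; one effect over the cord groups gave 2. The filterByExpr filter gave 1 in uninjected cord, 1 in day 8 skin, 1 in aGr1 skin and 0 in TSLPR.KO skin at day 8, where no filter gave 2. The replicate block gave 5 in PBS ganglion, 0 in aGr1 cord, 1 in aGr1 skin, 2 in TSLPR.KO skin at day 8 and 0 at day 12, and moved the count of all genes called from 796 to 3479 in PBS ganglion; outside day 5 and day 12 ganglion these libraries share only a number. In PBS cord, with 2 libraries per group and a correlation of −0.277, crossing the numbers, tried after seeing the data, gave 955 genes and 1 of the 9, against 224 genes and 0 with the numbers as labelled.

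Leaving out 1 library at a time gave 0 to 1 called in day 2, 0 to 2 in day 8, 1 to 4 in PBS, 0 to 1 in aGr1 and 1 to 4 in TSLPR.KO day 12 ganglion. It gave 0 to 3 in uninjected, 0 to 2 in PBS and 0 to 1 in aGr1 cord. In skin it gave 0 to 1 at day 5, 1 to 2 at day 8, 0 to 1 with PBS, 1 to 3 with aGr1, 0 to 1 in TSLPR.KO at day 8, 1 to 3 in BLT1.KO and 1 to 2 in TSLPR.KO at day 12, and 6 to 7 for ganglion against skin. Over all genes, DESeq2 called 78, 65, 49, 210, 887, 185 and 260 genes in ganglion at days 1, 2, 5 and 8, with aGr1 and in TSLPR.KO at days 8 and 12, against 0, 0, 2, 41, 456, 0 and 79 by edgeR, and 178 against 0 in PBS cord. Without 1 library these totals ran from 0 to 4899 at day 2, 0 to 33 at day 5, 5 to 71 at day 8, 246 to 3602 with PBS, 161 to 463 with aGr1, 0 to 832 in TSLPR.KO at day 8 and 31 to 95 at day 12 in ganglion, and from 93 to 6075 in PBS cord. Groups of 2 libraries and genes near 3 counts limit the precision.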
